A study of Homo sapiens with 6 samples.

Results

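The RAB genes encode small GTPases of membrane traffic. They were taken here as the protein-coding genes whose symbol is RAB, a number and at most 1 further letter, and 63 of the 58395 genes listed in each library met this rule. The rule uses names only and no measured value, but the family was chosen with earlier results of these data known. RNA was sequenced from HCT116, an established line of human colorectal cancer cells, in 6 libraries. 3 libraries came from cells with a non-target hairpin (shControl), and 3 came from cells with a hairpin against STBD1 (shSTBD1), an adaptor that carries glycogen to the autophagosome. All 6 libraries were of HCT116 cells with a lentiviral hairpin, so both groups had been infected, and the study's methods place infected cells in a selection medium. The methods give 1 hairpin sequence against STBD1, so loss of STBD1 and any other effect of that hairpin cannot be told apart. The study describes the 3 libraries of a group as biological replicates. Whether these came from separate infections is not stated. The tests below measure the spread between these libraries, which need not include the spread between infections.

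A RAB protein switches between a form bound to GTP, which sits on a membrane, and a form bound to GDP, which is drawn back into the cytosol. Exchange factors load GTP, GTPase activating proteins promote its hydrolysis, a lipid anchor is added by the prenylation machinery, and effectors such as tethers and motor adaptors bind the GTP form. Each RAB marks particular compartments: RAB1 and RAB2 act between the endoplasmic reticulum and the Golgi, RAB5 on early endosomes, RAB11 on recycling endosomes, RAB7 on late endosomes and lysosomes, and RAB3 and RAB27 on vesicles that are secreted. In epithelial cells such as those of the colon, RAB11A, RAB25, RAB8 and RAB13 serve the delivery of proteins to the apical surface and the cell junctions.

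The libraries held between 17689097 and 21668274 expected counts (RSEM's estimate of the reads from each gene), of which 0.255% to 0.273% came from RAB genes. Levels are given below as TPM, a scale of transcript abundance with the same total in every library, where genes are compared with each other, since TPM allows for length. They are given as CPM, counts relative to the library's total after scaling by edgeR's TMM factors, where 1 gene is compared between libraries. STBD1 (ENSG00000118804), the targeted gene, stood at 16.2, 15.7 and 14.4 CPM in shControl and at 11.6, 9.06 and 9.18 CPM in shSTBD1, a log2 fold change of -0.64 ± 0.098 (SE, edgeR adjusted p = 0.00029). The knockdown was therefore partial at the RNA level. Of 6 epithelial markers, EPCAM lay between 169 and 182 TPM, while CEACAM5 was at 0 in every library. KRT8, KRT18, KRT19 and CDH1 rose with log2 fold changes of 0.20 to 0.29, and their part in the results for RAB genes was not tested. The blood cell markers PTPRC, CD3E and HBB were at 0 in all libraries, and CD68, which is also a lysosomal membrane protein of other cells, rose from 7.25 to 11.3 TPM (edgeR adjusted p = 0.0027). The stromal and endothelial markers COL3A1, DCN, PECAM1 and VWF stayed at or below 0.39 TPM, and COL1A1 lay between 14.6 and 20.6 TPM.

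The promoters of 50 of the 63 genes were matched by symbol to RefSeq, each as 250 bases before and 50 after the start on GRCh38.p14. The 3 below belong to the members with the largest rises, RAB11A and RAB5A, and the largest fall, RAB5B, among those past the test described further on. Capitals mark motifs sought on both strands: the GC box GGGCGG or CCGCCC, the E-box CACGTG, the CCAAT box as CCAAT or ATTGG, the TATA box as TATAAA or TTTATA, and the cAMP response element TGACGTCA, none of which contains another.
RAB11A, chr15:65869241-65869540, plus strand: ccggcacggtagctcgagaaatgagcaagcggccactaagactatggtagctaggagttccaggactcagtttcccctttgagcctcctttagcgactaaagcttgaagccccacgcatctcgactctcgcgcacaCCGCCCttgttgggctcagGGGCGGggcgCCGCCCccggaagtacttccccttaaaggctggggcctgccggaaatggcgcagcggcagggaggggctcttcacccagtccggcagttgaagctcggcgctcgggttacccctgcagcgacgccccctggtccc
RAB5A, chr3:19946847-19947146, plus strand: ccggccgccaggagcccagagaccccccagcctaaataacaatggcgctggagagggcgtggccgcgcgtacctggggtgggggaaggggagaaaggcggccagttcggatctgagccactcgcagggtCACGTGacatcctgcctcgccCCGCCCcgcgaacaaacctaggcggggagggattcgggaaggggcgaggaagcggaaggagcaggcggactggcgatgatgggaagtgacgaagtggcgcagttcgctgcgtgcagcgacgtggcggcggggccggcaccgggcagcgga
RAB5B, chr12:55973699-55973998, plus strand: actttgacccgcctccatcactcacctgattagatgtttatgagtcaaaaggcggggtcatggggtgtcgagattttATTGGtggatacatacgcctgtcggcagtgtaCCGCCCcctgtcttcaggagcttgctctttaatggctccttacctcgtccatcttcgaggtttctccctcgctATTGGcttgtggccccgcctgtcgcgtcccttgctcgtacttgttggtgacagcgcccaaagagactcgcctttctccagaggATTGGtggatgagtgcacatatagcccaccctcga

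The 3 windows differed in composition. The RAB11A promoter was 64.0% G or C with 23 CpG dinucleotides and 3 GC boxes. That of RAB5A was 69.3% G or C with 32 CpG, 1 E-box and 1 GC box. The RAB5B promoter was 54.0% G or C with 16 CpG, 3 CCAAT boxes and 1 GC box. Over 27305 promoters in the table, 44.6% held a GC box, 35.7% a CCAAT box, 12% a TATA box, 7.43% the E-box and 1.98% the cAMP response element. Of the 41 RAB promoters that belong to genes with enough counts to be tested, 34 held a GC box (82.9%, against 70.0% of the 11167 promoters of all tested genes) and 12 a CCAAT box (29.3%, against 36.5%). None of the 8 promoters of members that rose held a CCAAT box, and 11 of the 31 of members that did not pass the test held one. These counts describe letters in the windows and are no measure of a factor's binding.

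The hairpins themselves were also set against the RAB transcripts, since 7 bases of pairing can be enough for a small RNA to act on a 3′ UTR. The sites sought were the 7 letters that pair with bases 2 to 8 and 3 to 9 of the antisense strand of each hairpin, in the 3′ UTR of the canonical GENCODE 44 transcript on GRCh38. GTGTCAC, which pairs with the shControl hairpin, occurred 2 times in the last exon of RAB11A and 1 time in that of RAB5B. The 3′ UTR of this RAB11A transcript is 4149 bases long. The transcript length that RSEM used for RAB11A, its effective length, was only 736 to 815 bases over the libraries. How much of the measured RAB11A RNA holds these sites is therefore not known. The RAB5B site starts at base 3590 of a 3′ UTR of 4471 bases, while the effective length of RAB5B was 2667 to 2895 bases. How much of the measured RAB5B RNA holds its site is likewise not known. Capitals mark the site in the windows below.
RAB11A, chr15:65887908-65887934, plus strand, exon 5 of 5: tgtaattcttGTGTCACttttgtgttt
RAB11A, chr15:65889668-65889694, plus strand, exon 5 of 5: atatataacaGTGTCACcagacccagg
RAB5B, chr12:55995792-55995818, plus strand, exon 6 of 6: taaagtatgtGTGTCACacaaaagtag
RAB5A, chr3:19984550-19984576, plus strand, exon 6 of 6, a GATTTCT site of the shSTBD1 hairpin: aggtgtctgtGATTTCTaattaatcac

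GTGTCAC was found in 5 of the 51 tested RAB genes (RAB11A, RAB21, RAB33B, RAB5B and RAB8A), a share of 9.8%, against 9.82% of the 13036 tested genes with a 3′ UTR. RAB11A and RAB21 were the members with more than 1 such site, and 1.18% of all genes had more than 1. RAB11A was higher in shSTBD1 and RAB5B lower, while RAB21, RAB33B and RAB8A did not pass the test. The other shControl site, TGTCACG, was found in 2 tested members, RAB33B and RAB7B (3.92%, against 3.04% of all genes), neither of which passed the test. The median log2 fold change of the 5 carriers of GTGTCAC was -0.015, beside 0.076 for the other 46 tested members. Over all genes the medians were 0.020 for carriers of GTGTCAC and 0.0026 for the rest. The shSTBD1 sites were more frequent among RAB genes, with GATTTCT in 14 of 51 (27.5%, against 18.5% of all genes) and TGATTTC in 13 (25.5%, against 18.0%). Both were carried by RAB11A and RAB5A, which rose, by RAB3B, which fell, and by RAB2A, RAB5C, RAB21, RAB22A and RAB27B, which did not pass. The median log2 fold change of members with GATTTCT was -0.015, beside 0.078 for those without, and over all genes -0.014 beside 0.0088. For TGATTTC the medians were 0.074 and 0.051 among members and -0.014 and 0.0085 over all genes. The shares of carriers were not matched for 3′ UTR length. Among tested members with GATTTCT this length ran from 804 bases in RAB5C to 14613 in RAB21. The part of these sites in the results was not tested.

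All members but RAB32 were listed above 0 in at least 1 library, and their levels spanned more than 3 orders of magnitude. Over the 6 libraries, 5 members had a mean of 100 TPM or more, 26 lay between 10 and 100, 17 between 1 and 10, and 15 below 1. RAB11A was the highest, at 158, 189 and 177 TPM in shControl and 257, 242 and 251 TPM in shSTBD1, and ranked 519th by mean TPM among all genes. It was followed by RAB5C (126 to 143 TPM), RAB7A (122 to 130 TPM), RAB1B and RAB13. RAB5C was above RAB7A in each of the 6 libraries, although their ranges over all libraries overlapped. This order depends on effective length, which was 736 to 815 bases for RAB11A. By CPM, which does not allow for length, RAB11A averaged 120 in shControl and 166.5 in shSTBD1, below RAB7A at 210 and 217. Between 80 and 100 TPM on average stood RAB10, RAB25 and RAB1A. RAB1A and RAB1B, RAB7A and RAB10 are the general RABs of the secretory pathway, the late endosome and the delivery of vesicles to the surface, and RAB25 is a RAB11 relative found in epithelia. 12 members had too few counts to be tested, at most 52 over the 6 libraries together: RAB3C, RAB6C, RAB6D, RAB9B, RAB19, RAB32, RAB33A, RAB34, RAB39A, RAB39B, RAB41 and RAB44. Their highest value in any library was 1.27 TPM, of RAB34.

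**Figure D1:**
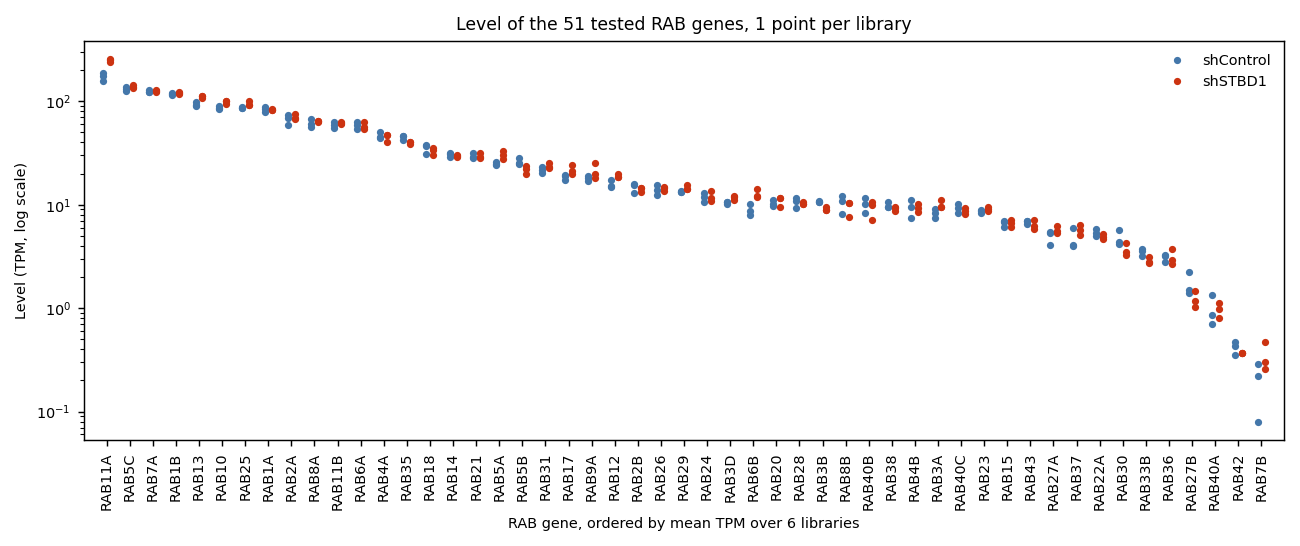
Level of each tested RAB gene in TPM (log axis) in the 3 shControl (blue) and 3 shSTBD1 (red) libraries, 1 point per library, ordered by the mean over 6 libraries. RAB11A stands highest in every library, from 158 to 257 TPM, and RAB7B lowest by mean, with values of 0.08 to 0.47 TPM.

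More RAB genes rose than fell in shSTBD1. Rounded expected counts entered the quasi-likelihood F-test of edgeR, and each p was adjusted (Benjamini-Hochberg) across the 15566 genes tested. At an adjusted p under 0.05, 9 of the 51 tested members were higher (17.6%, where 8.22% of all tested genes were higher) and 2 were lower (3.92%, where 7.54% of all tested genes were lower), and 40 did not pass. The members that rose were RAB11A, RAB5A, RAB27A, RAB9A, RAB6B, RAB13, RAB12, RAB3D and RAB25, and those that fell were RAB5B and RAB3B. The log2 fold change was above 0 in 34 members and below 0 in 17. Its median was 0.055 over the members and 0.0023 over all tested genes. In 17 of the 51 members every shSTBD1 library was above every shControl library in CPM (17.4% of all tested genes), and in 4 every shSTBD1 library was below (16.3% of all tested genes). The changes of called members were modest, between 1.11-fold and 1.39-fold higher by CPM, or down to 0.847 of the shControl level. RNA was taken from bulk cultures, where a change in the share of cells that express a gene and a change in RNA per cell cannot be told apart.

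**Figure D2:**
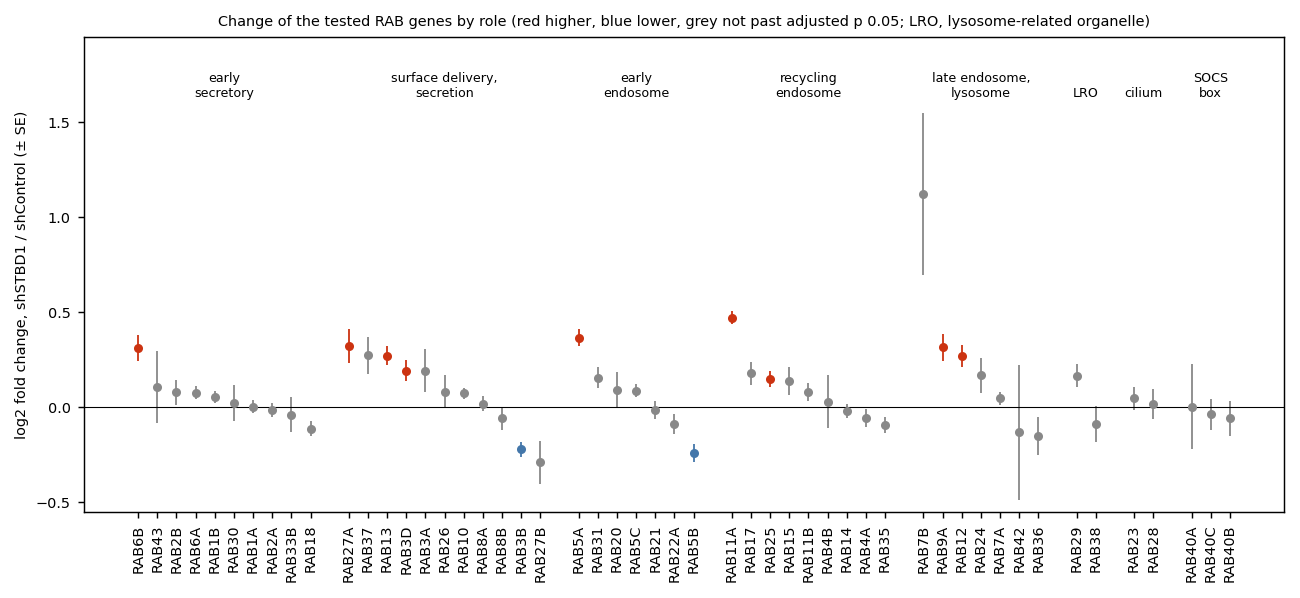
Log2 fold change of shSTBD1 over shControl (vertical axis, ± SE) for the 51 tested RAB genes, grouped by role. Red marks members higher and blue members lower at an edgeR adjusted p under 0.05. RAB11A has the largest rise past the test (0.47 ± 0.034), and the estimate of RAB7B (1.12 ± 0.42) has a wide error and did not pass.

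The counts depended on how transcript length was treated. RSEM gives each gene an effective length per library, which moves with the mix of isoforms it assigns. With these lengths as offsets in edgeR, 3 members were higher (RAB11A, RAB6B and RAB10, where 1.84% of all tested genes were higher) and RAB3B alone was lower (1.44% of all). With limma on log2(TPM + 1), RAB11A and RAB13 were higher (1.14% of all) and none was lower (0.732% of all), although 3 members were lower at an unadjusted p under 0.05. RAB11A passed the test under all 12 alternatives, and all 11 called members kept their direction under each of them.

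RAB11A, RAB11B and RAB25 form the RAB11 family, which returns receptors from the recycling endosome to the surface, RAB25 mainly in epithelia. RAB11A (ENSG00000103769, chr15:65726054-65891989) stood at 116, 123 and 122 CPM in shControl and at 168, 167 and 164.5 CPM in shSTBD1. The groups were well apart, and the rise was 0.47 ± 0.034 on the log2 scale (edgeR adjusted p = 9.8e-08), a fold of 1.39. RAB25 (ENSG00000132698, chr1:156061160-156070504) stood at 56.5, 53.9 and 54.6 CPM in shControl and at 63.3, 59.7 and 60.1 CPM in shSTBD1, a rise of 0.15 ± 0.043 (edgeR adjusted p = 0.026). The rise of RAB25 was no longer past the test when any 1 library other than shControl 1 was left out (edgeR adjusted p = 0.054 to 0.12), nor in DESeq2 (adjusted p = 0.11). RAB11B stood at 63.9, 70.2 and 66.4 CPM in shControl and at 68.4, 69.1 and 75.1 CPM in shSTBD1. Its groups overlapped, and its log2 fold change of 0.084 ± 0.047 did not pass (edgeR adjusted p = 0.26). Of the 9 RABs of the recycling endosome, 2 rose, none fell and 7 did not pass, where 8.22% of all tested genes were higher and 7.54% lower. Counts by role, here and below, rest on few genes and were not tested against these shares. The 7 that did not pass had log2 fold changes from -0.09 to 0.18, and the median of all 9 was 0.084. RAB17, another RAB of polarized epithelia, lay just outside the threshold at 0.18 ± 0.060 (edgeR adjusted p = 0.053), with all shSTBD1 libraries above all shControl libraries.

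RAB5A, RAB5B and RAB5C direct the fusion of early endosomes, and 2 of these 3 close relatives moved in opposite directions. RAB5A (ENSG00000144566, chr3:19947097-19985175) stood at 40.7, 41.4 and 41.1 CPM in shControl and at 53.3, 51.5 and 54.1 CPM in shSTBD1. This was a rise of 0.37 ± 0.045 on the log2 scale (edgeR adjusted p = 3.0e-05), with a spread between libraries far smaller than the gap. RAB5B (ENSG00000111540, chr12:55973913-55996683) stood at 63.2, 64.8 and 61.7 CPM in shControl and at 56.1, 54.0 and 50.7 CPM in shSTBD1, a fall of 0.24 ± 0.046 on the log2 scale (edgeR adjusted p = 0.0020). RAB5C, the most abundant of the family, stood at 146, 152 and 152 CPM in shControl and at 157, 164 and 157 CPM in shSTBD1. All of its shSTBD1 libraries were above all shControl libraries, but its log2 fold change of 0.088 ± 0.033 did not pass (edgeR adjusted p = 0.080). Of the other 4 RABs of the early endosome, RAB20, RAB21, RAB22A and RAB31, none passed, and their log2 fold changes lay between -0.09 and 0.16. RAB31, at 0.16 ± 0.054 (edgeR adjusted p = 0.063), passed under 4 of the 12 alternatives. With effective-length offsets neither RAB5A nor RAB5B passed the test.

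Among 7 tested RABs of the late endosome, the lysosome and autophagy, 2 rose and none fell (8.22% and 7.54% of all tested genes). With so few genes, the lack of a fall says little about this role. RAB9A (ENSG00000123595, chrX:13689128-13710504), which returns mannose 6-phosphate receptors from late endosomes to the Golgi, stood at 15.9, 17.1 and 17.5 CPM in shControl and at 22.0, 21.2 and 19.6 CPM in shSTBD1. The rise was 0.32 ± 0.071 (edgeR adjusted p = 0.0059). RAB12 (ENSG00000206418, chr18:8609437-8639383), which sends transferrin receptor from recycling endosomes to the lysosome, stood at 24.3, 23.3 and 25.4 CPM in shControl and at 30.2, 28.6 and 29.2 CPM in shSTBD1, a rise of 0.27 ± 0.058 (edgeR adjusted p = 0.0047). In both genes the lowest shSTBD1 library was above the highest shControl library in CPM. In TPM the groups of RAB9A overlapped, with shSTBD1 3 at 18.25 and shControl 2 at 18.98. Neither gene passed with effective-length offsets (edgeR adjusted p = 0.35 for RAB9A and 0.13 for RAB12). Nor did they with limma on log2(TPM + 1) (adjusted p = 0.41 and 0.17). RAB7A, the principal RAB of the late endosome and of the fusion of autophagosomes with lysosomes, was the third most abundant member by mean TPM. It stood at 214, 212 and 205 CPM in shControl and at 212, 222 and 217 CPM in shSTBD1. Its groups overlapped, with a log2 fold change of 0.047 ± 0.033 (edgeR adjusted p = 0.36). RAB7B had the largest estimate of all members, 1.12 ± 0.42, at 0.16 to 0.43 CPM in shControl and 0.60 to 0.76 CPM in shSTBD1, and did not pass (edgeR adjusted p = 0.084). RAB24, RAB36 and RAB42 did not pass either. RAB9B, the close paralog of RAB9A, was among the genes with too few counts.

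Of the 10 tested RABs of the early secretory pathway, only RAB6B passed, where 8.22% of all tested genes were higher and 7.54% lower. RAB6B (ENSG00000154917, chr3:133824235-133895882), an isoform of the Golgi RAB6 that is best known from the brain, stood at 21.1, 18.9 and 19.0 CPM in shControl and at 23.1, 25.8 and 24.2 CPM in shSTBD1, a rise of 0.31 ± 0.068 (edgeR adjusted p = 0.0054). RAB6A, the ubiquitous isoform, stood at 123, 119 and 117 CPM in shControl and at 131, 123 and 125 CPM in shSTBD1, with a log2 fold change of 0.078 ± 0.036 that did not pass (edgeR adjusted p = 0.15). The effective length of RAB6B was 2716, 2786 and 2151 bases in shControl and 2156, 2036 and 2261 in shSTBD1, with shControl 3 inside the shSTBD1 range. With it as an offset the rise was larger, at 0.54 ± 0.12. The remaining 8 lay between -0.11 (RAB18, edgeR adjusted p = 0.060) and 0.11 (RAB43), and included RAB1A at 0.0034 ± 0.034 and RAB1B at 0.055 ± 0.033, the RABs of traffic from the endoplasmic reticulum. RAB43 counts were uncertain, with a posterior SD of 16.0% of the count, and its exons are shared with the ISY1-RAB43 read-through gene.

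The RABs of delivery to the surface and of secretion changed in both directions, with 3 of 11 tested members higher and 1 lower (8.22% and 7.54% of all tested genes). RAB27A (ENSG00000069974, chr15:55202966-55319113), which docks melanosomes, lytic granules and other secretory organelles, stood at 8.26, 8.53 and 8.30 CPM in shControl and at 10.8, 10.4 and 10.2 CPM in shSTBD1. The rise was 0.32 ± 0.090 (edgeR adjusted p = 0.022), and it did not pass when shControl 3 or any 1 shSTBD1 library was left out (edgeR adjusted p = 0.0504 to 0.080), nor in DESeq2 (adjusted p = 0.15). RAB27B stood at 9.51, 8.96 and 8.58 CPM in shControl and at 8.59, 7.27 and 6.35 CPM in shSTBD1, with groups that met at their edges and a log2 fold change of -0.29 ± 0.12 (edgeR adjusted p = 0.10). RAB13 (ENSG00000143545, chr1:153981617-153986358), a RAB of tight junctions, stood at 80.1, 69.3 and 72.1 CPM in shControl and at 85.5, 90.3 and 91.3 CPM in shSTBD1, a rise of 0.27 ± 0.049 (edgeR adjusted p = 0.0013).

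The RAB3 proteins act in regulated exocytosis, and RAB3B and RAB3D changed in opposite directions. RAB3B (ENSG00000169213, chr1:51907956-51990700) stood at 124, 115 and 117 CPM in shControl and at 99.1, 106 and 99.7 CPM in shSTBD1, a fall of 0.22 ± 0.039 on the log2 scale (edgeR adjusted p = 0.0011). RAB3D (ENSG00000105514, chr19:11322068-11346270), known from the granules of exocrine cells, stood at 37.8, 34.5 and 37.3 CPM in shControl and at 39.4, 42.8 and 42.9 CPM in shSTBD1, a rise of 0.19 ± 0.054 (edgeR adjusted p = 0.024). The rise of RAB3D did not pass when shControl 2, shSTBD1 2 or shSTBD1 3 was left out (edgeR adjusted p = 0.098 to 0.11), nor in DESeq2 (adjusted p = 0.097). RAB3A, the neuronal form, stood at 6.49, 8.53 and 7.34 CPM in shControl and at 8.59, 8.23 and 8.83 CPM in shSTBD1, with overlapping groups and a log2 fold change of 0.19 ± 0.11 (edgeR adjusted p = 0.28). RAB8A, RAB8B, RAB10, RAB26 and RAB37 did not pass, with values from -0.06 to 0.27. Of the remaining roles, none of the 2 ciliary RABs, the 2 tested RABs of lysosome-related organelles and the 3 RAB40 genes with a SOCS box passed, and their log2 fold changes lay between -0.09 and 0.17.

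**Figure D3:**
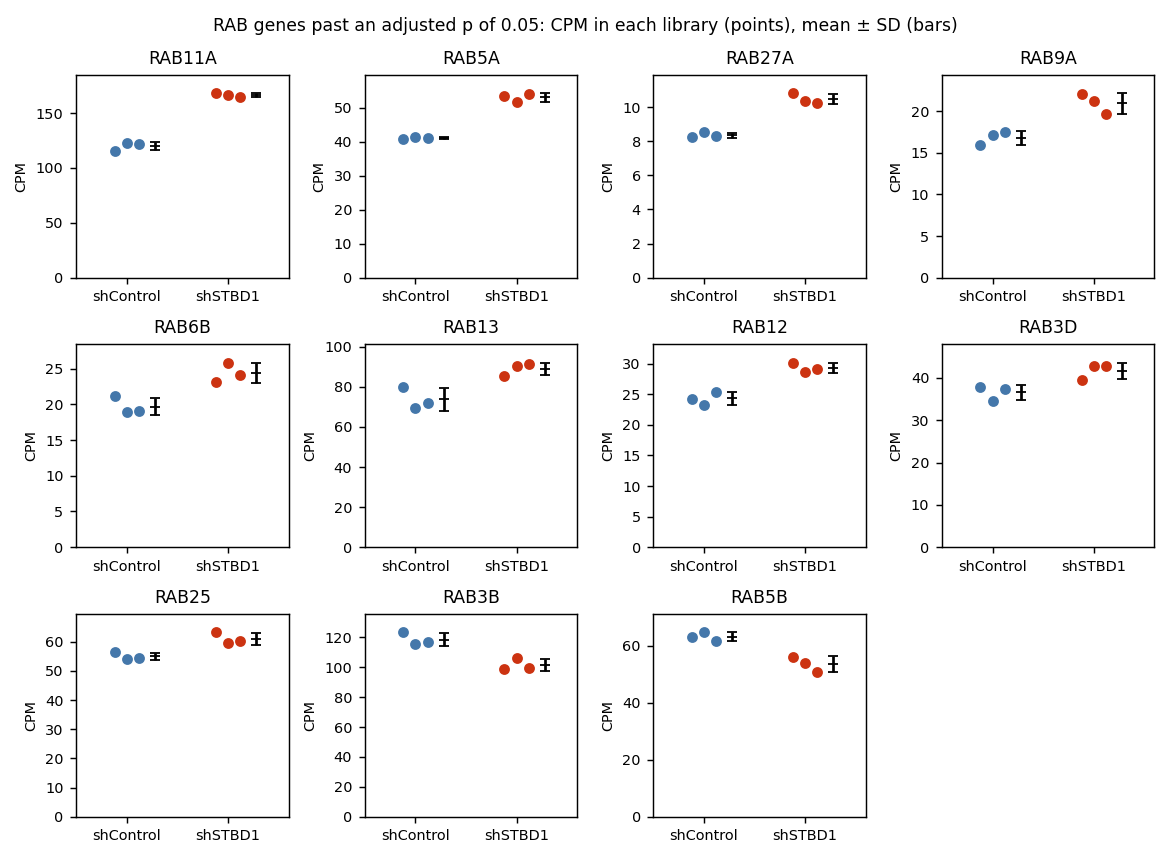
CPM (vertical axes, from 0) of the 11 RAB genes past an edgeR adjusted p of 0.05 in each shControl (blue) and shSTBD1 (red) library, with the mean ± SD of 3 libraries as black bars. In each panel the groups do not overlap, with RAB11A at 116 to 123 against 164.5 to 168 CPM and RAB3B at 115 to 124 against 99.1 to 106 CPM.

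Several of these genes share exons with a neighbour, and whether strand was used in the counting is not stated. RAB3D overlaps TMEM205, which rose by 0.18 (edgeR adjusted p = 0.034), and CCDC159. RAB6B overlaps SRPRB, at 66.6 CPM in shControl more abundant than RAB6B, with a log2 fold change of -0.06 (edgeR adjusted p = 0.46). RAB27A overlaps PIGB, with a log2 fold change of 0.16 (edgeR adjusted p = 0.46), and PIGBOS1. Without strand, reads from such exons cannot be assigned with certainty. RSEM's posterior SD was 1.06% of the count for RAB3D, 0.31% for RAB6B and 0.068% for RAB27A. RAB5A overlaps PP2D1, which was at most 0.16 TPM. RAB5B overlaps ENSG00000237493 (at most 0.95 TPM) and RAB12 overlaps ENSG00000266708 (at most 0.72 TPM). RAB13 shares exons with ENSG00000285641 on the same strand, an overlap that strand alone would not resolve.

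The make-up of the RAB pool differed between the groups. The TPM of all 63 members summed to 1635.5, 1714.8 and 1674.1 in shControl and to 1837.8, 1799.1 and 1795.8 in shSTBD1. RAB11A supplied 9.67%, 11.0% and 10.6% of this sum in shControl and 14%, 13.5% and 14% in shSTBD1. Without RAB11A the sums were 1477.3, 1525.5 and 1496.8 against 1580.5, 1556.6 and 1544.9, so all shSTBD1 libraries were still above all shControl libraries. This sum still holds the other members called higher, so it is not separate from their calls. The ratio of RAB11A to RAB11B in TPM was 2.97 ± 0.088 in shControl and 4.06 ± 0.16 in shSTBD1 (SD, n = 3 each, exact two-sided permutation p = 0.1, the smallest that 3 against 3 libraries can give). The ratio of RAB5A to RAB5B was 0.958 ± 0.050 in shControl and 1.40 ± 0.24 in shSTBD1 (SD, n = 3 each, exact permutation p = 0.1). RAB5A was thus level with RAB5B in shControl and above it in shSTBD1, with 1 library, shSTBD1 3, at 1.67 and the others at 1.27 and 1.25. RAB3B over RAB3D went from 1.03 ± 0.035 to 0.776 ± 0.032 and RAB6A over RAB6B from 6.68 ± 1.2 to 4.57 ± 0.57 (SD, n = 3 each, exact permutation p = 0.1 for both). Ratios and shares in TPM depend on effective length, which for RAB6B was longer in shControl 1 and 2 than in every other library. shControl 3 had a RAB6A to RAB6B ratio of 5.32, beside 5.15 in shSTBD1 1. By counts the fold was 1.06 for RAB6A and 1.24 for RAB6B. The ratio of RAB27A to RAB27B was 3.01 ± 0.76 in shControl and 4.82 ± 0.84 in shSTBD1, with overlapping groups (SD, n = 3 each, exact permutation p = 0.2). 8 such ratios were computed, chosen with the changes of the members known, and p was not below 0.1 for any.

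**Figure D4:**
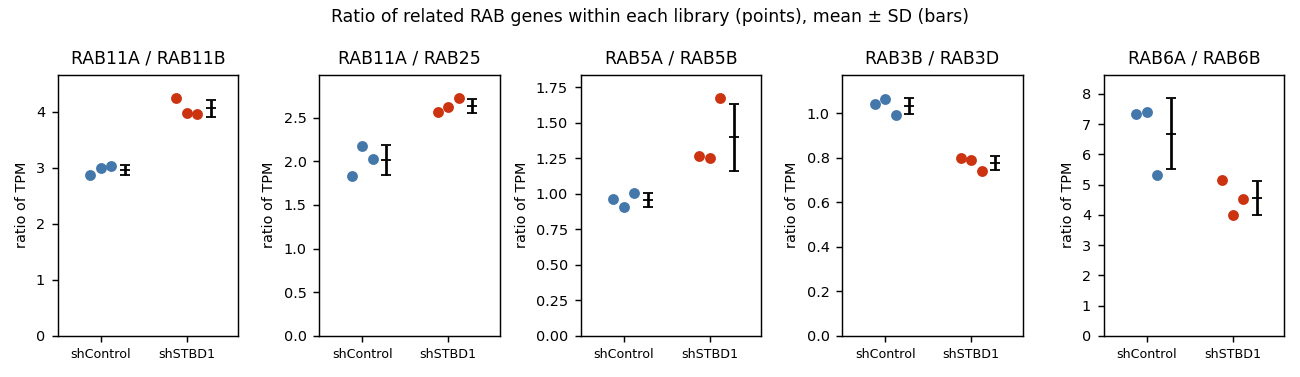
Ratio of the TPM of related RAB genes within each library (vertical axes, from 0), shControl in blue and shSTBD1 in red, with the mean ± SD of 3 libraries as black bars. RAB11A over RAB11B is 2.97 on average in shControl and 4.06 in shSTBD1, and RAB3B over RAB3D is 1.03 and 0.776.

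The genes that load, switch off, anchor and read RAB proteins were described from a list of 130, of which 126 had enough counts to be tested. 10 were higher (7.94%, with 8.22% of all tested genes) and 8 were lower (6.35%, with 7.54%), so their shares were near those of all genes, and the median log2 fold change was 0.022. Of 39 exchange factors, 3 were higher and 2 lower. Of 36 GTPase activating proteins, 3 were higher and 2 lower. Of 42 effectors, 3 were higher and 4 lower, and of 9 genes for prenylation and chaperones 1 was higher.

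Among effectors past the test, the largest changes were in partners of RAB11 and RAB27. RAB11FIP5, a RAB11 effector, stood at 44.6, 43.4 and 43.8 CPM in shControl and at 61.6, 60.5 and 61.1 CPM in shSTBD1, a rise of 0.48 ± 0.042 (edgeR adjusted p = 1.0e-06). RAB11FIP1, another RAB11 effector, fell by 0.21 ± 0.051 on the log2 scale (edgeR adjusted p = 0.012), and its fall did not pass when shSTBD1 2 or shSTBD1 3 was left out (edgeR adjusted p = 0.068 and 0.079). SYTL2, a RAB27 effector that tethers vesicles to the plasma membrane, stood at 33.0, 34.6 and 33.0 CPM in shControl and at 18.8, 19.4 and 18.9 CPM in shSTBD1. It fell by 0.82 ± 0.057 on the log2 scale (edgeR adjusted p = 7.5e-08), the largest change of any RAB or partner gene past the test. MLPH, which links RAB27A to myosin Va, fell by 0.28 ± 0.046, from 53.1 to 43.7 CPM on average (edgeR adjusted p = 0.00062). MYO5A, that myosin, rose by 0.41 ± 0.046, from 48.2 to 63.9 CPM (edgeR adjusted p = 1.4e-05). MICALL1, an effector on recycling tubules, fell by 0.23 ± 0.047, from 44.8 to 38.4 CPM (edgeR adjusted p = 0.0038).

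RABAC1, which binds prenylated RABs, stood at 27.4, 30.9 and 33.7 CPM in shControl and at 41.7, 41.8 and 40.9 CPM in shSTBD1, a rise of 0.44 ± 0.063 (edgeR adjusted p = 0.00017). The GTPase activating proteins TBC1D22B and TBC1D10A rose by 0.35 ± 0.080 and 0.31 ± 0.068 (edgeR adjusted p = 0.0068 and 0.0058). TBC1D10A acts on RAB27A and RAB35 among others. Of the exchange factors, DENND5B fell by 0.37 ± 0.046, from 51.9 to 40.1 CPM (edgeR adjusted p = 3.1e-05). RIN3, an exchange factor for RAB5, fell by 0.26 ± 0.077 (edgeR adjusted p = 0.031), and its fall did not pass when shControl 1, shControl 3, shSTBD1 2 or shSTBD1 3 was left out (edgeR adjusted p = 0.065 to 0.14), nor in DESeq2 (adjusted p = 0.098). RABGEF1, another exchange factor for RAB5, rose by 0.20 ± 0.064 (edgeR adjusted p = 0.040), and its rise did not pass when shControl 2, shControl 3, shSTBD1 2 or shSTBD1 3 was left out (edgeR adjusted p = 0.082 to 0.21), nor in DESeq2 (adjusted p = 0.12). The other partners past the test were ANKRD27, MICAL1, TBC1D14 and RIC1, which rose by 0.12 to 0.24, and TBC1D5 and TBC1D20, which both fell by 0.20 on the log2 scale. Leaving out 1 library ended the call of RIC1 (any but shControl 1, edgeR adjusted p = 0.077 to 0.18), MICAL1 (shSTBD1 1, 0.056) and TBC1D5 (shSTBD1 2 or 3, 0.058 to 0.068), and RIC1 and MICAL1 did not pass in DESeq2 (adjusted p = 0.13 and 0.054). With effective-length offsets 3 partners were higher and 3 lower, and RAB11FIP5, MYO5A, RABAC1, SYTL2, DENND5B and MLPH were those past the test.

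**Figure D5:**
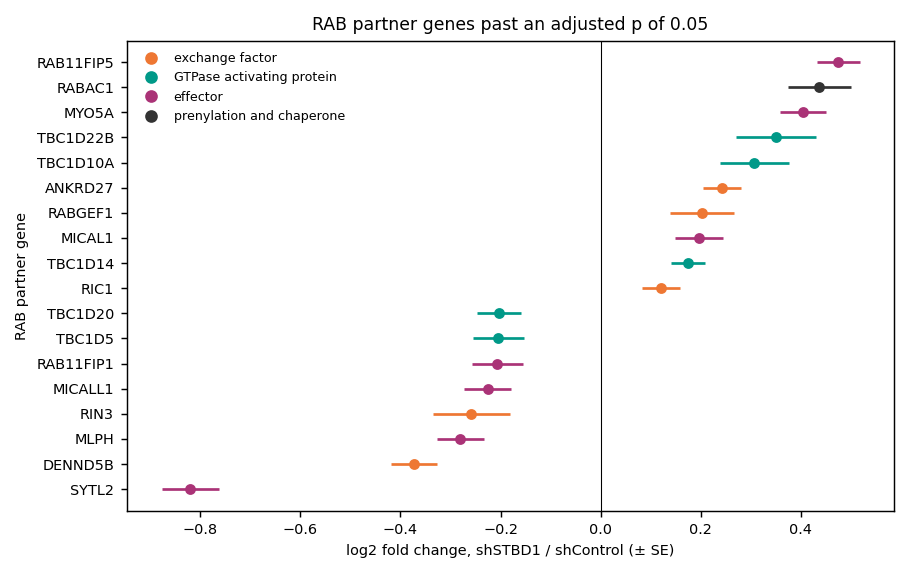
Log2 fold change of shSTBD1 over shControl (horizontal axis, ± SE) for the 18 RAB partner genes past an edgeR adjusted p of 0.05, coloured by role. RAB11FIP5 is the highest at 0.48 and SYTL2 the lowest at -0.82.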

How the data were processed

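Paired-end RNA-seq of 3 shControl and 3 shSTBD1 libraries of HCT116 cells was analysed, grouped by the labels. After discarding reads of low quality or with adapter or poly-N sequence, the authors mapped the clean reads with STAR 2.7.1a (hg38, Ensembl models) and quantified genes with RSEM 1.3.1. They deposited an expected count per gene, which is not normalized, and the TPM that RSEM computes from it, with the effective length and the posterior SD of each count. Whether strand was used is not stated.

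Expected counts were rounded, filtered with filterByExpr, scaled by TMM and compared with the quasi-likelihood F-test of edgeR 4.0.16 in R 4.3.3, with Benjamini-Hochberg adjustment over all 15566 tested genes. The SE is the log2 fold change divided by the root of F. Fits were tested on simulated counts. The called members had 147 to 3627 counts per library. The spread between libraries beyond counting error, edgeR's common biological coefficient of variation, was 3.37%. Counting error adds to this spread and is not small beside it at the lowest of these counts. Alternatives were DESeq2 1.42.0, library size in place of TMM, no filter, a replicate block, effective-length offsets, limma 3.58.1 on log2(TPM + 1) and leaving out each library. Symbols and 3′ UTRs came from GENCODE 44 on GRCh38, the build of hg38, which is a later annotation than that of the authors.

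The members, roles, partner list and sites were chosen with earlier results of these data known. Values by library are given for members past an adjusted p of 0.05 with an absolute log2 fold change of 0.2 or more and for their close paralogs, and of the partners the 5 largest rises and 5 largest falls are named. RAB3D, RAB25, RAB7A, RAB7B, RAB17, RAB18, RAB31, RAB1A, RAB1B and the other partners past the test were named in addition, after their values were seen, where they illustrate a role or lie near the threshold. 1 gene of the marker lists is not reported here.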

Additional observations from a re-analysis of the deposited data

How the results depend on the processing

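Of the 11 called RAB genes, all kept their direction under the 12 alternatives. With effective-length offsets the counts were 3 RAB genes higher and 1 lower and 3 partner genes higher and 3 lower, and with limma on log2(TPM + 1) they were 2 and 0 and 1 and 2. Over the 15566 tested genes these settings made 287 and 178 calls higher (1.84% and 1.14%) and 224 and 114 lower (1.44% and 0.732%). The main fit made 1280 and 1173 (8.22% and 7.54%). STBD1 had a log2 difference of -0.54 in limma on log2(TPM + 1) (adjusted p = 0.065) and did not pass there. RAB6A, not called, changed sign to -0.011 with effective-length offsets and -0.019 with limma. With 1 library left out, 6 to 10 RAB genes were higher and 2 to 3 lower, and 8 to 13 partners were higher and 5 to 9 lower, the 5 without shSTBD1 replicate 3. In those fits 4.96% to 8.4% of all tested genes were higher and 3.94% to 7.84% lower. RAB27B passed without shSTBD1 replicate 1 (log2 fold change -0.41, edgeR adjusted p = 0.046). Over the 26 genes named by the rule other than STBD1, 261 of 312 values under an alternative kept their side of the threshold and direction, 48 no longer passed, 1 newly passed and 2 changed sign. The causes were not tested. DESeq2 called 763 genes higher (2.7%) and 700 lower (2.48%) of 28224, a set that includes genes the edgeR filter left out. It called 6 RAB genes higher and 2 lower, and 7 partners higher and 7 lower. RAB3D, RAB25, RAB27A, RIN3, RABGEF1, MICAL1 and RIC1 were not among them. Scaling by library size and no filter on low counts gave 10 RAB genes higher, RAB31 among them, and 2 lower. Over all genes, scaling by library size gave 8.58% higher and 6.39% lower. Without the filter 5.24% of 28225 genes were higher and 4.6% lower.

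With the replicate number as a replicate block, 10 RAB genes were higher and 2 lower, and 12 partners were higher and 9 lower. Over all genes 1361 (8.74%) were called higher and 1218 (7.82%) lower. Whether the numbers pair the samples is not stated. Libraries with the same number deviated from their group means with correlations of 0.068, 0.041 and -0.0068, and other pairs with -0.062 to 0.022. All of these correlations are weak, the highest were between libraries of the same number, and they do not decide whether the samples are paired.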

Other observations

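RSEM's effective length did not overlap between the groups for some members without a call on counts. It was 2611 ± 174 bases in shControl and 3370 ± 431 in shSTBD1 for RAB30 (SD, n = 3 each), and 3601 ± 257 and 4178 ± 182 for RAB33B. For RAB24 it was 1112 ± 38.65 and 1206 ± 37.78. It was shorter in shSTBD1 for RAB36, at 3552 ± 3.58 and 3147 ± 272, and for RAB10, at 2527 ± 61.1 and 2311 ± 81.1. These differences were not tested. The share of all genes whose effective lengths do not overlap was not computed, so whether RAB genes stand out in this is not known. For RAB43 the lengths overlapped, at 1345 ± 390 and 1557 ± 384. RAB10 was higher with effective-length offsets and did not pass without them (log2 fold change 0.074 ± 0.030, edgeR adjusted p = 0.11). The cause of these shifts was not tested.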
